A study of Mus musculus with 9 samples.

Results

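Cells grown from leukemic progenitors were set against normal progenitors across all genes, as 3 L-GMP-derived arrays (titled AKLG-1, AKLG-2 and AKLG-3) and 3 arrays of normal granulocyte-macrophage progenitors (GMP). These 6 of the 9 mouse expression arrays of the series were chosen by their titles, and the 3 arrays of L-GMP, the leukemic cells themselves, are quoted beside them where a value helps. The normal GMP came from bone marrow, and L-GMP are the GMP-like cells of leukemias started by MLL-AF9 in committed progenitors. The AKLG arrays name L-GMP as their source and were read as L-GMP propagated in vitro by elimination, because the design text names such cells and the other titles do not.

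Every sample is labelled as sorted hematopoietic cells. The labels give no mouse strain, age, culture medium, growth factor or time in culture, and they do not say which antigens were used to sort each group or whether the controls carry any vector. No label tells whether the 3 arrays of a group are separate mice or cultures, and the p-values therefore cover array-to-array spread alone, which may be technical. RNA was taken from bulk samples, in which fewer cells of a type and less RNA per cell cannot be told apart. Growth in culture, leukemic origin and the MLL-AF9 fusion all separate the 2 groups and cannot be told apart here.

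GMP are committed marrow progenitors that give rise to neutrophils and monocytes and depend on cytokines for survival and division. MLL-AF9 joins the amino-terminal part of the chromatin regulator MLL (Kmt2a) to AF9 (Mllt3), a component of complexes that promote transcript elongation. The fusion is known for holding genes of the HoxA cluster and their cofactor Meis1 in an active state, and for giving committed progenitors the capacity to renew themselves.

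The deposited signals are array intensities on a linear scale. Signals are printed as deposited, in the order AKLG-1, AKLG-2, AKLG-3 and then GMP replicate 1 (titled normal GMP), 2 and 3. For every fold and test, signals under 62.4 were first raised to that floor, which is the 25th percentile of all values, and then put on a log2 scale. A fold is 2 raised to the difference between the groups' mean log2 signals, and it is given as "at least" where any array on the lower side was at the floor. Of 22690 probe sets, 14578 reached a signal of 111 on 3 or more of the 9 arrays and were tested. A gene bright in a single group entered the test through that group, so its p-value is not independent of this filter. One probe set per gene, the one with the highest mean, stood for each of 8965 genes. Of 415 genes with 2 or more probe sets that passed the test below, 25 had them in opposite directions. A gene is said to have risen or fallen where limma's moderated test gave an adjusted p under 0.05 (Benjamini-Hochberg over all tested probe sets), and n is 3 arrays in each group throughout.

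Of the 8965 genes, 2157 (24.1%) differed between L-GMP-derived cells and GMP. The higher genes numbered 1201 (13.4%), the lower genes 956 (10.7%), and 567 genes (6.32%) were changed 2-fold or more. In 3667 genes (40.9%) no derived array fell within the range of the GMP arrays, nor the reverse. The median log2 difference of all tested genes was 0.00.

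AKLG-1 stood apart from the other arrays of its group. Its signals correlated with those of AKLG-2 and AKLG-3 at 0.958 and 0.964 over the tested probe sets, whereas AKLG-2 and AKLG-3 correlated at 0.989 and the GMP arrays at 0.982 to 0.991. AKLG-1 was at least 2-fold from AKLG-2 in 599 probe sets and from AKLG-3 in 492, against 35 between AKLG-2 and AKLG-3. Without AKLG-1, 2716 genes (30.3%) passed, 1615 (18.0%) higher and 1101 (12.3%) lower, and 1976 of them passed in the same direction with all arrays. No gene passed in opposite directions in the 2 fits, and in 2142 of the 2157 genes AKLG-1 lay on the same side of the GMP range as AKLG-2 and AKLG-3. Both counts were largely fixed in advance, since AKLG-1 helped to pick the 2157 genes and the 2 fits share all other arrays. GMP replicate 1 stood apart from the other GMP arrays in stress and late neutrophil genes, as given with those genes. The 3′ to 5′ ratio of the beta-actin control probe sets was 7.10 ± 0.14 (SD, n = 3) in derived cells and 7.37 ± 0.648 (SD, n = 3) in GMP (exact permutation test, two-sided p = 0.8). The 3′ to middle ratio of the same gene was 3.01 ± 0.17 (SD, n = 3) against 4.23 ± 0.537 (SD, n = 3), with an exact p of 0.1, the smallest that 3 arrays against 3 allow. The 3′ to middle ratio of Gapdh was likewise lower on every derived array, at 1.86 ± 0.132 (SD, n = 3) against 2.13 ± 0.101 (SD, n = 3; exact p = 0.1). The part of these ratios in the results below was not tested.

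The labels were first set against the genes that define GMP and macrophages. The neutrophil serine proteases of the primary granule were bright in both groups. Elane, which encodes neutrophil elastase, read 6419, 6445 and 5623 in derived cells and 6716, 6509 and 6033 in GMP. Prtn3 (proteinase 3) read 7435, 7293 and 7697 against 7719, 8279 and 7725. Ctsg (cathepsin G) read 9265, 8806 and 8692 against 8350.2, 8199.5 and 8229. None of these 3 passed the test (adjusted p = 0.739, 0.285 and 0.343), and each differed by less than 1.1-fold. The derived cells thus carried these 3 protease transcripts at levels near those of GMP. Mpo, another primary granule gene, did not follow them and fell 11.9-fold, as given further on.

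Of the genes for antigens used in a GMP sort, Kit and Cd34 were far lower and Fcgr3 was not. Kit, the receptor for stem cell factor, read 110, 105 and 67 in derived cells and 861, 778 and 809 in GMP, a fall of 8.89-fold (adjusted p = 1.59e-06). Cd34, a sialomucin of progenitors, read 55.6, 35 and 18.7 against 631, 495 and 578, at least 9.05-fold lower (adjusted p = 9.67e-06). Every derived array was below every GMP array for both genes. Fcgr3, which encodes the Fc receptor CD16, read 501, 563 and 488 against 567, 487 and 548, and the groups overlapped. In marrow L-GMP, Kit read 614, 587 and 771 and Cd34 read 189, 294 and 436, so the derived cells lay below the leukemic cells too (7.11-fold for Kit, adjusted p = 4.20e-06, and at least 4.63-fold for Cd34, adjusted p = 1.04e-04).

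Macrophage-defining genes moved in both directions. Csf1r, the receptor for macrophage colony-stimulating factor, read 820, 383 and 402 against 5322, 6318 and 5661 and fell 11.5-fold (adjusted p = 4.00e-06). Adgre1, which encodes F4/80, read 402, 1253 and 1297 against 387, 361 and 376 and rose 2.32-fold (adjusted p = 0.0329). AKLG-1 lay close to the GMP arrays for this gene and the other derived arrays did not. Cd68, a lysosomal membrane protein of macrophages, read 175, 228 and 240 against 103, 102 and 89.3, a rise of 2.17-fold (adjusted p = 2.61e-04). Cd14, the lipopolysaccharide coreceptor, read 139, 112 and 149 against 67.1, 203 and 164 and did not pass (adjusted p = 0.975).

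The 25 genes with the highest rise and the 25 with the deepest fall among those whose groups did not overlap mixed enzymes, cytoskeletal genes, transcription factors and secreted proteins. The rise of Hpgd was the largest. Hpgd encodes 15-hydroxyprostaglandin dehydrogenase, which inactivates prostaglandins, and read 6239, 6528 and 6435 in derived cells against 23.6, 23.4 and 15.2 in GMP. It was thus among the bright transcripts on all 3 derived arrays and below the floor on all GMP arrays, at least 102-fold apart (log2 difference 6.68 ± 0.08 SE, adjusted p = 1.11e-11). Its signals in L-GMP were 4483, 4553 and 4516. Mylk, the myosin light chain kinase, read 3257, 3238 and 2963 against 77.8, 104 and 128, a rise of 31.1-fold (adjusted p = 6.54e-08). Enah, an actin-filament regulator, read 996, 2889 and 2858 against 101, 106 and 131, a rise of 18.0-fold (adjusted p = 1.40e-05). For Enah, AKLG-1 was the lowest of the derived arrays and still far above GMP.

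Several leading rises were at or under the floor in marrow L-GMP as well as in GMP. Hoxa11 read 317, 581 and 592 in derived cells, -28.4, -56.7 and -27.8 in GMP and 5.34, -5.59 and -26.8 in L-GMP. Ppp1r14c, an inhibitor subunit of protein phosphatase 1, read 346, 926 and 750 against 30.2, 34 and 26.1 in GMP and 40.8, 28.4 and 27 in L-GMP. Ccn3, a secreted matrix-associated protein, read 157, 857 and 777 against 7.33, 2.33 and 6.02 in GMP and 5.94, 3.21 and 2.06 in L-GMP. Of the 9 arrays only the derived ones had signals above the floor for these genes, at least 7.65-fold, 9.96-fold and 7.54-fold above GMP (adjusted p = 6.81e-06, 2.32e-05 and 0.00213). These genes entered the test through the derived arrays alone, so their adjusted p-values are not independent of the filter. The fold of Ccn3 was at least 13.1 without AKLG-1. F7, which encodes coagulation factor VII, read 2835, 859 and 955 against 19.7, -0.0153 and 13.5 and was at least 21.2-fold higher (adjusted p = 1.38e-05), with AKLG-1 the highest array.

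Other leading rises were shared with L-GMP. Ampd3, which deaminates AMP, read 470, 737 and 767 against 37.8, -7.82 and 8.86 in GMP and 906, 567 and 448 in L-GMP. Mycn, the paralog of Myc, read 2681, 630 and 726 against 30.3, 5.85 and 3.58 in GMP and 5772, 4182 and 2286 in L-GMP. The rise of Mycn over GMP was at least 17.1-fold (adjusted p = 2.02e-04) and at least 10.8-fold without AKLG-1, whose signal was the highest of the group. Myc itself read 1079.7, 996 and 1028 against 1064, 1232 and 1169.8 and did not pass (adjusted p = 0.323).

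The falls described next lie outside the stress gene lists, which are given further on. Kcnn4, a calcium-activated potassium channel, read 4.04, -161 and -121 in derived cells against 1727, 2525 and 2394 in GMP and was at least 35.0-fold lower (adjusted p = 2.25e-08). Chdh, choline dehydrogenase, read 225, 129 and 118 against 2941, 3492 and 3543 and fell 22.0-fold (adjusted p = 8.72e-07). Satb1, a chromatin organizer, read 72.1, 42.1 and 29.9 against 972, 1066 and 1174 and was at least 16.3-fold lower (adjusted p = 5.57e-06). Anxa1, a phospholipid-binding annexin of myeloid cells, read 507, 271 and 240 against 5078, 4942 and 5112, a fall of 15.7-fold (adjusted p = 7.99e-07). No derived array reached the lowest GMP array for any of these 4 genes, which was a condition of their choice.

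Gja1 and Rab38 were low in both leukemic groups. Gja1, which encodes the gap junction protein connexin 43, read 17.5, 34.5 and 35.4 against 887, 770 and 759 in GMP and 6.25, 11.7 and 11.6 in L-GMP. Rab38, a small GTPase of lysosome-related organelles, read 69.4, 67.2 and 67.4 against 851, 822 and 859 in GMP and 52.9, 52.7 and 55.1 in L-GMP. The distances from GMP were at least 12.9-fold for Gja1 and 12.4-fold for Rab38 (adjusted p = 2.82e-08 and 2.25e-08). Both genes entered the test through the GMP arrays alone. Mndal, an interferon-inducible nuclear protein, fell with AKLG-1 apart, at 584, 24.4 and 33 against 3188, 3514 and 3609, at least 26.1-fold (adjusted p = 7.62e-04) and at least 55-fold without AKLG-1.

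**Figure D1:**
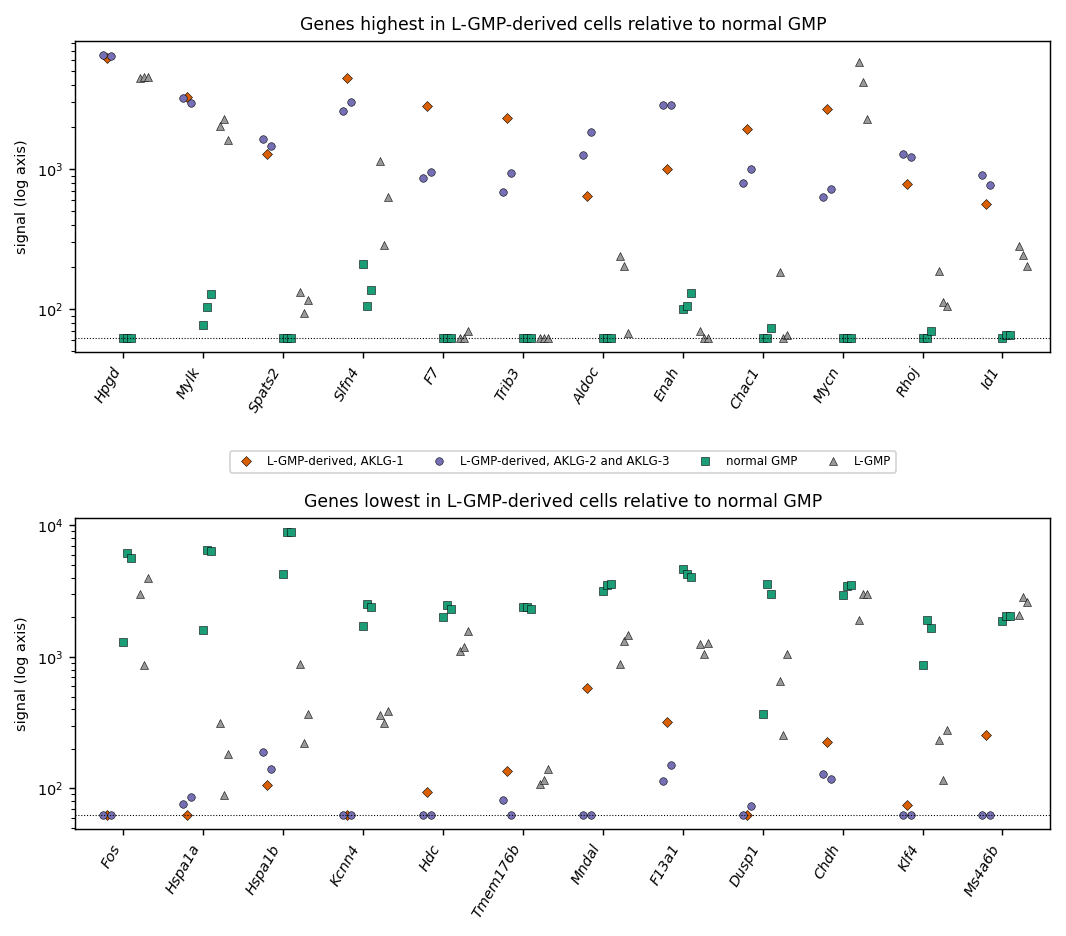
Signals of the 12 leading rises (top) and 12 leading falls (bottom) on each array, on a log axis, with AKLG-1, AKLG-2 with AKLG-3, normal GMP and L-GMP in separate symbols and the floor of 62.4 as a dotted line. For Hpgd all 3 derived arrays lie at 6239 or above and all GMP arrays on the floor, and for Fos the reverse order holds.

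Genes were also described through 40 lists of pathways and cell markers, which hold 1000 genes, of which 737 were tested. Each count with all arrays is to be read against the 13.4% of all genes that rose and the 10.7% that fell. Counts without AKLG-1 are to be read against 18.0% and 12.3%. Under the other settings the number of calls over all probe sets moved too, as given at the end, so a shifted count need not be particular to its list.

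The HoxA cluster encodes homeodomain factors that keep hematopoietic progenitors self-renewing, and Pbx and Meis proteins bind DNA with them. Of 9 tested genes of this list 7 rose and none fell, with all arrays and without AKLG-1, and the median log2 difference was 1.76. The risers numbered 6 without any 1 GMP array, without AKLG-3 or against a minimum fold of 1.2. Hoxa9 read 6003, 5108 and 5139 in derived cells against 1394, 1745 and 1658 in GMP, a rise of 3.39-fold (adjusted p = 5.65e-07). Hoxa5 read 3237, 1622 and 1746 against 274, 353 and 339, a rise of 6.54-fold (adjusted p = 1.57e-05), and Hoxa10 read 276, 360 and 303 against 21.2, 24.2 and 21.8, at least 4.98-fold (adjusted p = 2.26e-06). Thus genes at 3 places of the cluster stood above GMP on every derived array. The Hox cofactor Pbx3 read 475, 644 and 496 against 35.6, 52.2 and 47.1 (at least 8.54-fold, adjusted p = 1.78e-07), and Meis1 read 1271, 1009 and 928 against 471, 500 and 544 (2.10-fold, adjusted p = 2.72e-04). The smallest rise was that of Hoxa3, by 1.34-fold. Hoxa7 and Pbx2, both chosen after their values were seen because they were the members that did not rise, did not pass. They read 595, 384 and 443 against 307, 370 and 351 and 220, 353 and 321 against 293, 336 and 408.

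Reported targets of MLL fusions outside the Hox genes did not rise as a group. Of 16 tested, 3 rose and 6 fell, and 5 fell without AKLG-1. One of the 6, Prg2, an eosinophil granule gene named after its values were seen, is a doubtful member of this list, and it did not pass with the floor at the 40th percentile or with no filter on dim probe sets (adjusted p = 0.162 and 0.0801). The other riser beside Pbx3 and Meis1 was Igf2bp3, an RNA-binding protein of fetal tissues, at 485, 365 and 350 against 64.1, 66.6 and 65.1 (6.06-fold, adjusted p = 7.69e-07). Falls included Runx1, a master factor of definitive hematopoiesis, at 820, 910 and 783 against 1794, 1408 and 1418 (1.83-fold, adjusted p = 0.00187). Sox4, a high-mobility-group factor, fell 3.13-fold (1037, 339 and 408 against 1434, 1782 and 1717, adjusted p = 0.00734), with AKLG-1 closest to GMP. Kmt2a, whose probe set measures whatever transcript of the locus it binds, read 174, 145 and 158 against 175, 177 and 184 (adjusted p = 0.324).

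Cholesterol is made from acetyl-CoA through mevalonate, farnesyl pyrophosphate, squalene and lanosterol, and the enzymes of this path are controlled together by the sterol-sensing factor SREBP2. Of 18 tested enzymes 15 rose and none fell, a share of 83.3% against the 13.4% of all genes, with all arrays and when any single array was left out. The median log2 difference was 1.90, and 14 of the 15 rises were at least 2-fold. All members are named here in the order of the pathway, so those outside the leading few were chosen after their values were seen.

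The smallest of the 15 rises was at the entry of the pathway. Hmgcs1, which makes HMG-CoA, read 3234, 4307 and 5631 against 2236, 2235 and 2188, a rise of 1.93-fold (adjusted p = 0.00572). Of the steps from mevalonate to isoprenoid units, Mvk rose at least 2.98-fold, Pmvk 3.76-fold and Idi1 3.95-fold, while Mvd read 598, 504 and 550 against 642, 645 and 586 and did not pass. Fdps, the farnesyl pyrophosphate synthase, read 560, 551 and 547 against 81.6, 78.5 and 95.6 (6.51-fold, adjusted p = 1.26e-07). Ggps1, which leads from farnesyl to geranylgeranyl groups and away from sterols, read 248, 259 and 221 against 295, 239 and 242 and did not pass.

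All the tested steps committed to sterols except Ebp were higher. Fdft1 and Sqle, which make and oxidize squalene, rose 4.63-fold and 5.99-fold, and Lss, which closes it to lanosterol, rose 3.25-fold. Sqle read 722, 1039 and 932 against 161, 152 and 133. Of the enzymes that trim lanosterol, Cyp51 rose 5.12-fold, Tm7sf2 6.15-fold, Nsdhl 2.16-fold and Hsd17b7 3.74-fold. Msmo1, the sterol C4 methyl oxidase, read 458, 616 and 593 against 72.9, 27.4 and 49.5 (at least 8.38-fold, adjusted p = 3.75e-07). Sc5d and Dhcr7, which complete cholesterol, rose 3.70-fold and 3.73-fold, and the isomerase Ebp read 1329.8, 1033 and 1222 against 1136, 1293 and 1098 and did not pass. Hsd17b7, at 309, 596 and 689 in derived cells, had AKLG-1 lowest.

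The regulators and carriers of sterols split. Srebf2, which encodes SREBP2, read 556, 649 and 759 against 265, 268 and 300 and rose 2.34-fold (adjusted p = 7.10e-04). Stard4, a cytosolic sterol carrier, read 1102, 1597 and 1877 against 520, 414 and 433 and rose 3.28-fold (adjusted p = 1.29e-04). The genes of cholesterol export went the other way. Abcg1, an efflux transporter, read 344, 251 and 298 against 1024, 1194 and 1149 and fell 3.79-fold (adjusted p = 6.73e-06). Abca1 read 27.9, 43.1 and 37.6 against 198, 155 and 174, and Apoe, the apolipoprotein that takes up exported cholesterol, read 41.8, 29.7 and -5.56 against 267, 246 and 253. They were at least 2.80-fold and 4.08-fold lower (adjusted p = 1.35e-04 and 4.99e-06), and in both genes every derived array lay under the floor. Of 11 tested genes of sterol sensing and transport 2 rose and 3 fell, also without AKLG-1.

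Of 12 tested genes of fatty acid synthesis 6 rose and 1 fell. Fasn, the fatty acid synthase, read 2844, 3156 and 3384 against 1811, 1673 and 1764 (1.78-fold, adjusted p = 9.51e-05), and the desaturase Scd2 read 3372, 2897 and 3376 against 1583, 1336 and 1374 (2.25-fold, adjusted p = 2.19e-05). The single fall, of the elongase Elovl5 by 1.44-fold (adjusted p = 0.0288), did not pass when any 1 GMP array was left out.

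The promoters of the cholesterol genes are shown because their members moved together. The start regions of RefSeq (GRCm38.p6), from 250 bases before to 50 after the start of each gene, were searched on both strands for CCAAT (the CCAAT box, bound by NF-Y) and for CACNCCAC (a core of sterol response elements). Of the 18 tested cholesterol genes 15 had a promoter in the table, and all 15 held a CCAAT box, against 41.1% of 27025 genes with a promoter and 42.5% of the tested genes. The 15 include Mvd, Ggps1 and Ebp, which did not pass, so the box does not mark the risers. It was also in 75.9% of mitosis genes and in 75% of class I antigen presentation genes, more of which fell than rose. The sterol element core was found in 1 of the 15 (6.67%), against 7.12% of all genes. Each line gives 30 bases, 5′ to 3′ on the strand of the gene, with the motif in capitals. The first is the sterol element core of Hmgcs1, on the plus strand of chr13:119690204-119690233.
Hmgcs1: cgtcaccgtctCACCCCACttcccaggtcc
The others are CCAAT boxes, in forward or reverse orientation, of genes along the pathway: Idi1 (plus strand, chr13:8885549-8885578), Lss (plus strand, chr10:76531531-76531560), Cyp51 (minus strand, chr5:4104709-4104738), Msmo1 (minus strand, chr8:64733721-64733750) and Dhcr7 (plus strand, chr7:143830117-143830146).
Idi1: tgcctccagctgATTGGcgagcccgggcat
Lss: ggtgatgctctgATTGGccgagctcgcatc
Cyp51: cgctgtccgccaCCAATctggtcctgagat
Msmo1: ccatccgcgcagCCAATgactggcgccgct
Dhcr7: tcactgccttcaCCAATcacaggacgcagc
A match says that these letters lie in the window, and no binding was measured.

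**Figure D2:**
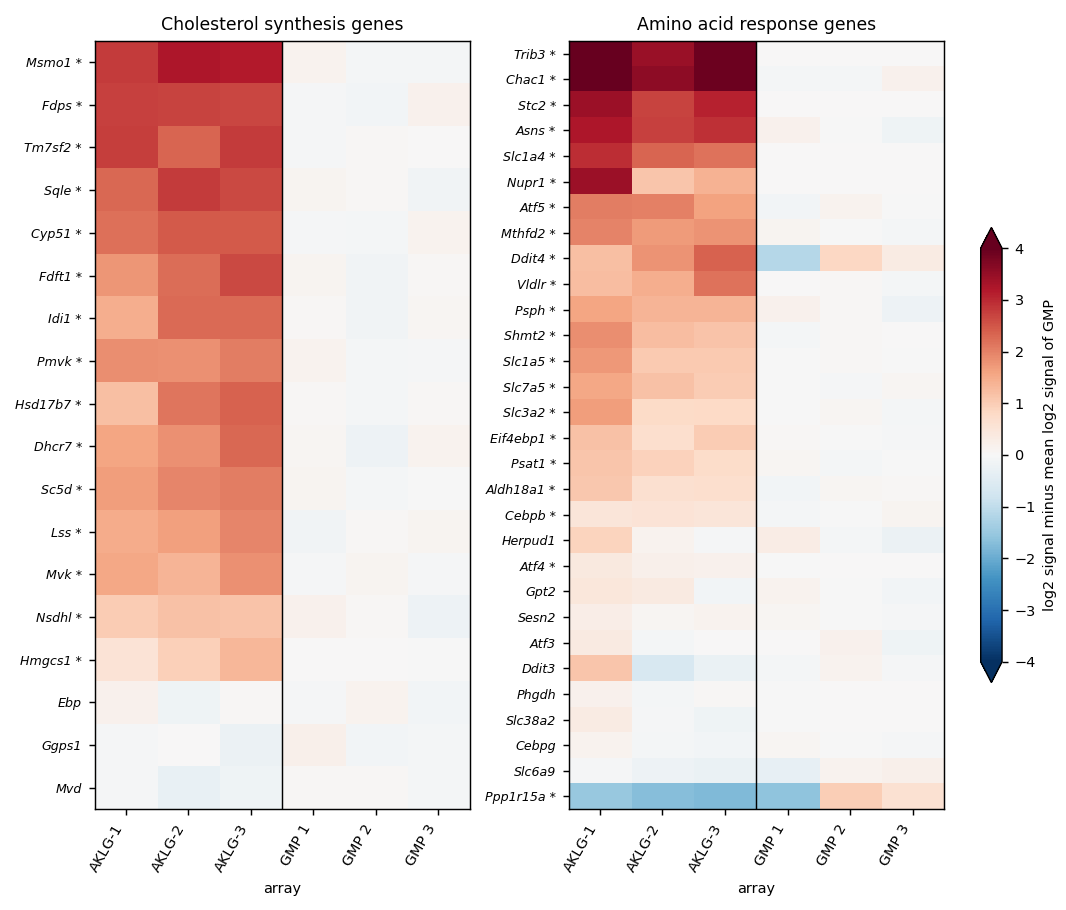
Log2 signal of each array minus the mean log2 signal of GMP, for the tested cholesterol synthesis genes (left) and amino acid response genes (right), with floored signals, colours limited to the range of the bar and an asterisk on each gene that passed the test. The 15 marked cholesterol genes are red on all 3 derived arrays, and Nupr1 is darkest on AKLG-1.

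ATF4 is the transcription factor of the integrated stress response, which is switched on when amino acids run short or proteins misfold, and it raises genes of amino acid synthesis, import and tRNA charging. Of 30 tested ATF4 genes 20 rose, 66.7% against the 13.4% of all genes, with a median log2 difference of 1.01, and 20 rose without AKLG-1. The 1 that fell, Ppp1r15a, did so by 3.15-fold (adjusted p = 0.0479) and did not pass without any 1 derived array or without GMP replicate 2 or 3.

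The pseudokinase Trib3, which feeds back on ATF4, read 2331, 683 and 943 against 8.38, 6.5 and 10.7 (at least 18.3-fold, adjusted p = 1.46e-05). Chac1, which degrades glutathione, read 1932, 793 and 1002 against 59.5, 62.6 and 73.6 (at least 17.5-fold, adjusted p = 5.82e-05). Nupr1, a small stress-induced chromatin protein, read 663, 136 and 165 against -6.27, -0.649 and 3.49, at least 3.94-fold and at least 2.4-fold without AKLG-1 (adjusted p = 0.0108 and 2.68e-04). Nupr1 did not pass with the floor at the 40th percentile, where it was at least 2.21-fold higher (adjusted p = 0.103), with no filter on dim probe sets (adjusted p = 0.0645) or with the replicate block (adjusted p = 0.071). In Trib3, Chac1 and Nupr1 AKLG-1 was the brightest array, and the other derived arrays were still above every GMP array. Ddit3, which encodes the stress factor CHOP and was chosen after its values were seen, read 814 on AKLG-1 but 245 and 313 on the others, with GMP at 361, 414 and 366, and did not pass (adjusted p = 0.922).

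Several enzymes and transporters of amino acids were among the risers. Asns, asparagine synthetase, read 3916, 2802 and 3213 against 478, 413 and 376 (7.80-fold, adjusted p = 3.19e-05). Slc1a4, a neutral amino acid carrier, read 486, 313 and 281 against 21.7, 16.9 and 21.3 (at least 5.60-fold, adjusted p = 9.10e-06), and Stc2, the secreted stanniocalcin 2, read 670, 407 and 524 against 17.1, 16.8 and 10.3 (at least 8.37-fold, adjusted p = 8.72e-07). The serine and one-carbon enzymes Psph, Shmt2, Mthfd2 and Psat1, named here for their role after their values were seen, rose 2.69-fold, 2.65-fold, 3.54-fold and 1.89-fold. Phgdh, the first enzyme of serine synthesis, read 4776, 4002 and 4380.4 against 4124, 4241 and 4276 in GMP (adjusted p = 0.868). In L-GMP its group mean lay 15.1-fold under that of the derived cells. Atf4 itself rose 1.19-fold (7435, 6533 and 6359 against 5588, 5754 and 5734, adjusted p = 0.00918).

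Aminoacyl-tRNA synthetases charge tRNAs with their amino acids. Of 18 tested cytosolic ones 12 rose and none fell, and 11 rose without AKLG-1. Aars (alanine) read 2433, 1699.7 and 1729 against 552, 579 and 569 (3.40-fold, adjusted p = 2.67e-05), and Tars (threonine) read 625, 529 and 471 against 261, 196 and 221 (2.40-fold, adjusted p = 3.61e-04). Those were the 2 rises of at least 2-fold. The count of risers was 7 without GMP replicate 2 or without GMP replicate 3, and 6 when tested against a minimum fold of 1.2.

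The amino acid response element was searched as TGATGNAA on both strands in the same promoter windows. It was present in 8 of 27 ATF4 genes with a promoter (29.6%) and in 5 of 11 tRNA synthetases (45.5%), against 4.51% of all genes and 2.78% of tested genes. The ATF4 list was drawn from known targets of this factor, so its share is a description of the list. The windows of some risers are shown because the same letters recur in them, in forward or reverse orientation: Asns (minus strand, chr6:7693214-7693243), Chac1 (plus strand, chr2:119351038-119351067), Trib3 (minus strand, chr2:152344028-152344057), Nupr1 (minus strand, chr7:126625562-126625591), Slc1a4 (minus strand, chr11:20332699-20332728), Gars (plus strand, chr6:55037960-55037989) and Tars (minus strand, chr15:11399655-11399684).
Asns: tcccagccacaTGATGAAActtcccgcacg
Chac1: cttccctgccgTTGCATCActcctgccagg
Trib3: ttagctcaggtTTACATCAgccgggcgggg
Nupr1: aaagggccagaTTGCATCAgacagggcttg
Slc1a4: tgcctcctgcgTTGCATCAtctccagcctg
Gars: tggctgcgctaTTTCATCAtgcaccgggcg
Tars: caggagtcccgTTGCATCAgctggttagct
The reverse form TTGCATCA occurs in 4 of these 7 windows.

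Glycolysis turns glucose to pyruvate and lactate, and many of its genes also respond to low oxygen through HIF1. Of 26 tested genes of this list 13 rose and 1 fell, and 18 rose without AKLG-1. Aldoc, an aldolase, read 643, 1262 and 1839 against 29.4, 26.8 and 29.2 (at least 18.3-fold, adjusted p = 1.16e-04). Bnip3, a mitochondrial protein induced by low oxygen, read 661, 1511 and 2042 against 279, 322 and 350 (4.02-fold, adjusted p = 0.00191), and Slc16a3, a lactate exporter, read 185, 303 and 487 against 82.4, 91.6 and 78.2 (3.59-fold, adjusted p = 0.00127). In these 3 genes AKLG-1 was the lowest derived array. Pfkp, a phosphofructokinase, had AKLG-1 highest, at 1305, 928 and 925 against 366, 341 and 343 (2.97-fold, adjusted p = 4.35e-05). Ndrg1, which is also known to be induced by low oxygen, fell 3.16-fold (248, 234 and 400 against 969, 871 and 867, adjusted p = 1.48e-04). Ak4, a mitochondrial adenylate kinase, read 112 on AKLG-1 and 1763 and 2059.7 on the others, with GMP at 1367, 1480.2 and 1416.

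Genes of the respiratory chain and of protein synthesis moved by small folds. Of 38 oxidative phosphorylation genes 8 rose and 4 fell, none by 2-fold. The risers numbered 4 without GMP replicate 2, 3 without GMP replicate 3 and 5 without AKLG-2 or AKLG-3, and 2 fell without any 1 GMP array. Ndufa4 was the deepest fall, at 1450.2, 1195 and 1315 against 1921, 2071 and 2025 (1.52-fold, adjusted p = 9.29e-04). Of 35 genes of ribosome biogenesis 8 rose and none fell, and 13 rose without AKLG-1. Bop1, which matures the large ribosomal subunit, read 512, 586 and 583 against 293, 337 and 331 (1.75-fold, adjusted p = 6.62e-04). Of 30 ribosomal protein genes 9 rose, by at most 1.29-fold, and 5 rose without GMP replicate 3. Of 31 proteasome subunit genes 9 rose and none fell, with 15 risers without AKLG-1, 4 without GMP replicate 2 and 5 without GMP replicate 3. Against a minimum fold of 1.2 there were 2 risers among proteasome genes, 3 in ribosome biogenesis and 0 in oxidative phosphorylation and ribosomal proteins. The proteolytic subunit Psmb5 read 2545, 2643 and 2677 against 1715, 1617 and 1557 (1.61-fold, adjusted p = 8.32e-05).

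Mitosis genes, which build the spindle and separate chromosomes, were higher in many cases. Of 34 tested mitosis genes 16 rose and none fell (47.1% against the 13.4% of all genes, median log2 difference 0.40), 17 rose without AKLG-1 and 10 without GMP replicate 2. Against a minimum fold of 1.2 the count was 4. Aurka, the kinase of spindle poles, read 1104, 1089 and 1124 against 537, 445 and 496 (2.25-fold, adjusted p = 2.79e-04), and Plk1, a kinase of mitotic entry, read 342, 532 and 499 against 257, 225 and 247 (1.85-fold, adjusted p = 0.0116). Every derived array exceeded every GMP array for both kinases. Of 34 replication genes 2 rose and 2 fell, and 1 fell without any 1 GMP array, AKLG-2 or AKLG-3. With the probe sets of each gene averaged, 4 rose and 1 fell. Pola1, the catalytic subunit of DNA polymerase alpha, was among the falls, at 1398, 1619.8 and 1637 against 2202, 2354 and 2329 (1.48-fold, adjusted p = 0.00287). Of 18 nucleotide synthesis genes 2 rose and 3 fell. The risers numbered 4 without AKLG-1, 1 without any 1 GMP array and 0 without AKLG-2, and 1 gene fell without GMP replicate 2 or 3. Whether these lists differ from the mitosis genes was not tested.

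The D-type cyclins, which drive the exit from G1 phase, changed in different directions. Ccnd3 read 581, 469 and 479 against 148, 249 and 277 and rose 2.34-fold (adjusted p = 0.00317). Ccnd1 read 101, 111 and 108 against 205, 173 and 186 and fell 1.76-fold (adjusted p = 0.00164). Ccnd2 read 170, 1104 and 1009 against 2303, 2533 and 2537, with AKLG-1 far below its group. The fall of Ccnd2 was 4.28-fold (adjusted p = 0.0219), it was 2.33-fold without AKLG-1 (adjusted p = 7.40e-04), and it did not pass without GMP replicate 1, 2 or 3 (adjusted p = 0.0549, 0.0669 and 0.0728).

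Targets of the tumor suppressor p53, which halts division or starts death after damage, rose in 7 of 14 tested. The remainder were 1 that fell and 6 that did not pass, with all arrays and without AKLG-1, and 2 fell without GMP replicate 1. Cdkn1a, the Cdk inhibitor p21, read 607, 1086 and 1224 against 73.8, 207 and 132 (7.37-fold, adjusted p = 2.06e-04). Zmat3, an RNA-binding protein, read 125, 270 and 250 against 21.5, 24 and 10.1 (at least 3.26-fold, adjusted p = 8.00e-04), and Phlda3, an inhibitor of Akt, read 176, 163 and 305 against 68.6, 70.8 and 76.6 (2.87-fold, adjusted p = 6.54e-04). In L-GMP, Cdkn1a read 183, 182 and 171 and Phlda3 71.8, 69.5 and 75.4, both inside the range of the GMP arrays. The single fall was of Sesn1, at 1193, 1369.5 and 1310.2 against 1845, 1779.5 and 2098 (1.48-fold, adjusted p = 0.00555), a gene chosen after its values were seen.

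The Bcl2 family holds death-promoting and survival members, and both were among the risers. Of 14 tested 6 rose and none fell, 7 rose without AKLG-1, and 1 fell without GMP replicate 1. Pmaip1 (Noxa) read 629, 728 and 664 against 43.4, 203 and 68.4 (at least 7.05-fold, adjusted p = 3.29e-04), Bbc3 (Puma) 430, 380 and 334 against 162, 244 and 208 (1.88-fold, adjusted p = 0.00229), and the pore former Bak1 343, 576 and 537 against 225, 243 and 229 (2.04-fold, adjusted p = 0.00616). The survival gene Bcl2l1 read 327, 376 and 343 against 247, 226 and 215 (1.52-fold, adjusted p = 0.00453). Bcl2l2, another survival gene, chosen after its values were seen, read 201, 257 and 251 against 178, 150 and 149 (1.48-fold, adjusted p = 0.0112) and did not pass without GMP replicate 3 (adjusted p = 0.0521). Pmaip1 was also high in L-GMP, at 637, 534 and 487.

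Immediate early genes are transcribed within minutes of a stimulus, without new protein synthesis, and dissociation and sorting of tissue are known to induce them. Of 22 tested none rose and 10 fell (45.5% against the 10.7% of all genes, median log2 difference -0.79), and 11 fell without AKLG-1. Fos read 2.4, 2.27 and -10.1 in derived cells against 1307, 6152 and 5691 in GMP (at least 57.3-fold, adjusted p = 9.43e-05). Dusp1, a phosphatase of MAP kinases, read 52.4, 50.1 and 73.2 against 370, 3617 and 3031 (at least 24.2-fold, adjusted p = 0.00168), and Klf4 read 75.4, 24 and 36.6 against 861, 1895 and 1652 (at least 20.9-fold, adjusted p = 1.05e-05). The derived arrays were at or near the floor, and GMP replicate 1 was the lowest of the GMP arrays in each gene.

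The size of these falls depended on that array. Without GMP replicate 1 the falls were at least 94.7-fold for Fos, 50.3-fold for Dusp1 and 45.2-fold for Jun, whose fall was at least 18.6-fold with all arrays (49, 24.8 and 11.1 against 198, 3012 and 2642, adjusted p = 0.00549). Egr1 read 48.9, 35.4 and 30.8 against 146, 4026 and 2761. It was at least 18.8-fold lower with all arrays (adjusted p = 0.0101), at least 53.4-fold without GMP replicate 1, at least 10.2-fold without GMP replicate 2, and did not pass without GMP replicate 3 (adjusted p = 0.0514). Leaving out GMP replicate 2 gave at least 16.1-fold for Dusp1 and 11.6-fold for Jun, and leaving out replicate 3 gave at least 12.4-fold for Jun. The list held 14 falls without GMP replicate 1, 7 without replicate 2 and 6 without replicate 3. How long each sample was handled before lysis is not labelled, and its part in these values was not tested.

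Heat shock genes encode chaperones, some of them made when proteins unfold, and 5 of 20 tested fell. Hspa1a, an inducible Hsp70, read 16.7, 76.4 and 85.5 against 1615, 6518 and 6423, at least 54.9-fold lower (adjusted p = 3.87e-05) and at least 87.2-fold without GMP replicate 1. Its neighbour Hspa1b read 106, 189 and 141 against 4251, 8880.1 and 8858 (49.1-fold, adjusted p = 1.46e-05), and the near-identical sequences of these genes can share probes. In L-GMP Hspa1a read 315, 89.1 and 182, so it was GMP that stood high. Dnajb4, a co-chaperone, read 14.6, 82.1 and 63.4 against 559, 952 and 813 (at least 11.0-fold, adjusted p = 1.05e-06). The mitochondrial chaperone Hspd1 rose 1.24-fold (4190.5, 4773 and 4790.0 against 3584, 3839.8 and 3696, adjusted p = 0.00695). Hspd1 was the only riser, 14 genes did not pass, and without AKLG-1 as many rose as fell (7 and 7). The count of falls was 3 without GMP replicate 2 or without replicate 3.

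The heat shock element core GAANNTTC was present in 10 of 16 heat shock genes with a promoter (62.5%), against 9.04% of all genes and 6.97% of tested genes. Of the 10, Hspa1a and Hspa1b were among the falls, Hspd1 rose and the rest did not pass. The share is a description of the list, and its tie to the falls was not tested. The window shown lies on the minus strand of chr17:34972242-34972271 for Hspa1a and chr17:34959324-34959353 for Hspa1b (GRCm38.p6, RefSeq), and its letters are the same in both genes.
Hspa1a: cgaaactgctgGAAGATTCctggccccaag
Hspa1b: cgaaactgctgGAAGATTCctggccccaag

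**Figure D3:**
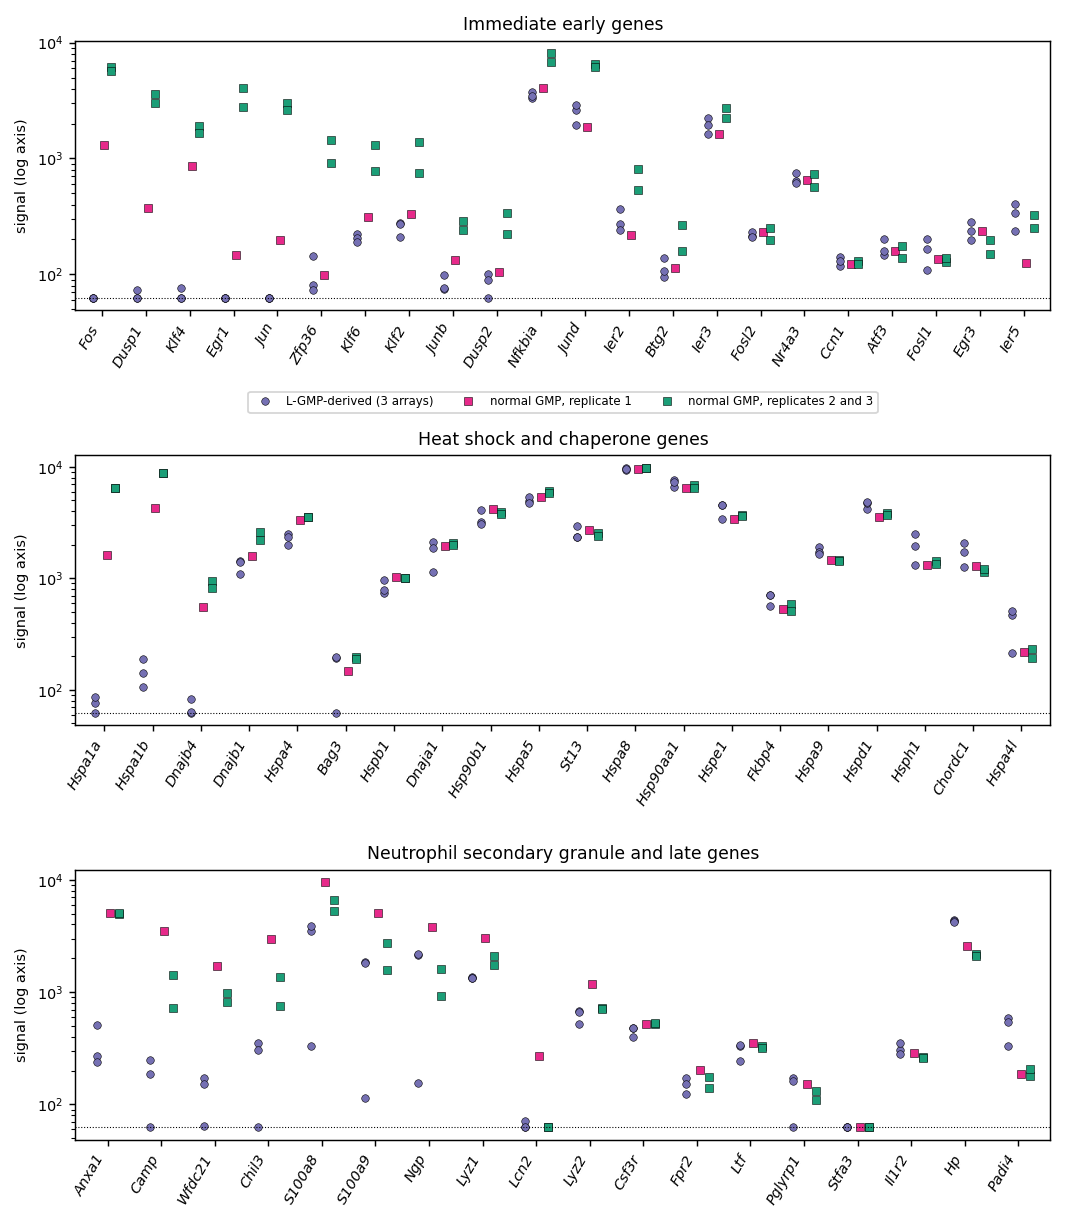
Signals on each array, on a log axis with the floor as a dotted line, of the tested immediate early genes (top), heat shock and chaperone genes (middle) and late neutrophil genes (bottom), with the 3 derived arrays, GMP replicate 1 and GMP replicates 2 and 3 in separate colours. GMP replicate 1 is the lowest GMP array for Fos (1307 against 6152 and 5691) and the highest for S100a9 (5053 against 1578 and 2726).

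Cytokine receptors carry the growth and survival signals of progenitors. Of 20 tested 2 rose and 4 fell, and 3 fell without AKLG-1. Csf2rb2, the beta subunit of the interleukin-3 receptor of mice, read 443, 585 and 485 against 134, 146 and 160 (3.42-fold, adjusted p = 2.80e-05). It was the larger of the 2 rises, and the other, of Csf2ra by 1.18-fold, did not pass without GMP replicate 1 or 3 (adjusted p = 0.0738 and 0.0645). Beside Kit and Csf1r, Il6ra, the interleukin-6 receptor, fell 4.30-fold (377, 219 and 182 against 962, 1094 and 1135, adjusted p = 2.23e-04).

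STAT5 carries the signal of interleukin-3 and related cytokines into the nucleus, and it induces its own feedback inhibitors. Cish, a SOCS-family inhibitor of STAT5, read 1838, 2225 and 2396 against 210, 234 and 249 (9.29-fold, adjusted p = 1.26e-07) and 290, 254 and 254 in L-GMP. Socs2 read 170, 178 and 153 against 30.7, 23 and 31.2 (at least 2.67-fold, adjusted p = 4.25e-05), and the kinase Pim1 read 3917, 3425 and 3632 against 1172, 1783 and 1639 (2.42-fold, adjusted p = 6.05e-04). Every derived array exceeded every GMP and L-GMP array for these genes. Dusp6, a phosphatase of ERK counted in the same list, fell 2.19-fold (108, 80.6 and 92.2 against 145, 251 and 232, adjusted p = 0.00304). Of 17 tested 5 rose and 4 fell, also without AKLG-1, and 2 fell without GMP replicate 2 or 3.

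Interferons induce antiviral and antigen-presenting genes. Of 24 tested 1 rose, 10 fell (41.7% against the 10.7% of all genes) and 13 did not pass, and 2 rose and 10 fell without AKLG-1. Irf8, which directs progenitors to monocytes, read 808, 476 and 382 against 2295, 2361 and 2327 (4.41-fold, adjusted p = 8.16e-05). The immunity-related GTPase Ifi47 read 377, 659 and 591 against 2999, 2876 and 2811 (5.48-fold, adjusted p = 5.57e-06). The chemokine Cxcl10 read 150, 80.5 and 101 against 377, 2643 and 1694 (11.1-fold, adjusted p = 0.00198), and its fall was 19.8-fold without GMP replicate 1. The exception was Ifitm1, a membrane protein that restricts virus entry, at 3634, 5234 and 5337 against 1083, 1079 and 1017 (4.40-fold, adjusted p = 5.02e-05) and 48.7, 102 and 58.8 in L-GMP. Its neighbour in the family, Ifitm3, chosen after its values were seen, fell 2.42-fold (955, 844 and 774 against 2202, 2121 and 1889.5, adjusted p = 9.68e-04).

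Among 27 tested myeloid transcription factors 5 rose and 12 fell, and 11 fell without AKLG-1. Id1, an inhibitor of basic helix-loop-helix factors, read 566, 906 and 774 against 60.1, 65.1 and 65.6 (at least 11.4-fold, adjusted p = 5.18e-07). Gata2, a factor of stem cells and mast cells, read 131, 95 and 104 against 594, 647 and 604 (5.63-fold, adjusted p = 2.11e-05). Zfpm1, a partner of GATA factors, read 54.5, 82.6 and 117 against 435, 531 and 524 (at least 5.86-fold, adjusted p = 5.91e-05). The groups did not overlap for these 3 genes. Stem cell factors fell too, with Hlf at 30.4, 10.6 and 12.1 against 257, 222 and 254 and Tal1 at -23.5, -10.2 and -25.3 against 149, 149 and 195 (at least 3.91-fold and 2.61-fold, adjusted p = 1.46e-05 and 1.20e-04). Of 13 stem cell markers 2 rose (Mycn and Meis1) and 6 fell.

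The surface antigens considered in sorting GMP fell or did not pass. Of 9 tested none rose and 5 fell, also without AKLG-1. Beside Kit and Cd34 these included Itga2b, the integrin CD41, at 90.5, 83.4 and 79.9 against 263, 387 and 372 (3.98-fold, adjusted p = 0.00103), and Cd27, at 3.2, -5.35 and -11.7 against 198, 211 and 165 (at least 3.05-fold, adjusted p = 2.54e-05). The latter was also near 0 in L-GMP, at -10, -2.92 and 11.3.

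Primary granule genes are those that neutrophil precursors make first. Mpo, which encodes myeloperoxidase, read 3581, 425 and 319 against 9224, 9398 and 9476, a fall of 11.9-fold (adjusted p = 0.00407). AKLG-1 lay between the other derived arrays and GMP, and the fall was 25.4-fold without AKLG-1 and 7.59-fold without AKLG-3. Nkg7, a granule membrane protein, read 247, 275 and 286 against 2389, 2372 and 2525 (9.03-fold, adjusted p = 6.30e-08), and Cst7, a cystatin, fell 1.70-fold (666, 596 and 592 against 1087, 1052 and 1008, adjusted p = 0.00652). Of 13 tested genes these 3 fell and none rose, also without AKLG-1. Elane, Prtn3 and Ctsg, which are usually made with Mpo, were among the 10 that did not pass.

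Secondary granule and late neutrophil genes varied within both groups. Of 18 tested 2 rose and 4 fell, and 5 fell without AKLG-1. Camp, the antimicrobial peptide cathelicidin, read -3.29, 248 and 185 against 3534, 717 and 1432 and was at least 10.8-fold lower (adjusted p = 0.00248). The fold was at least 7.14 without GMP replicate 1 and 7.18 without AKLG-1. Chil3, a chitinase-like protein, read 15.3, 352 and 307 against 2972, 747 and 1377 (at least 7.68-fold, adjusted p = 0.00867, and 4.42-fold without AKLG-1). The alarmin S100a9 read 115, 1854 and 1801 against 5053, 1578 and 2726, so that AKLG-2 and AKLG-3 overlapped GMP, and the gene did not pass (adjusted p = 0.156). Ngp, a granule protein, had the same pattern, at 155, 2119 and 2178 against 3799.9, 931 and 1601 (adjusted p = 0.474). Hp, which encodes haptoglobin, rose 1.89-fold without such spread (4394, 4318 and 4212 against 2561, 2203 and 2109, adjusted p = 9.54e-06).

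Monocyte and macrophage genes split into risers and fallers. Of 38 tested 13 rose and 11 fell, 15 and 11 without AKLG-1, and the summed signal of the list ran from 28403 to 29800.4 on the derived arrays and from 40909 to 42409 on GMP. The falls included genes of early monocytes. F13a1, the coagulation factor XIII subunit, read 318, 113 and 152 against 4689, 4258 and 4045 (24.6-fold, adjusted p = 2.71e-06). Ms4a6c, a membrane protein of monocytes, read 324, 119 and 110 against 2086, 2023 and 1961 (12.5-fold, adjusted p = 4.26e-05), and Mpeg1 (perforin-2) read 133, 64.3 and 59.2 against 1057, 852 and 891 (at least 11.5-fold, adjusted p = 6.48e-06). AKLG-1 was the brightest derived array for all 3.

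The rises in this list were smaller and several were in lysosomal or secreted proteins. Lgals3, a galectin chosen after its values were seen, read 603, 1462 and 1753 against 489, 172 and 216 (4.40-fold, adjusted p = 0.00959). Tlr4, the lipopolysaccharide receptor, also chosen after its values were seen, read 245, 398 and 344 against 123, 94 and 122 (2.87-fold, adjusted p = 0.003). Of 33 tested lysosome genes 14 rose and 4 fell, and 13 rose and 5 fell without AKLG-1. The sialidase Neu1 read 167, 187 and 204 against 79.3, 45.7 and 48.7 (at least 2.74-fold, adjusted p = 1.41e-04), and Gusb, beta-glucuronidase, read 1396, 1186 and 1126 against 603, 560 and 506 (2.22-fold, adjusted p = 2.93e-04). Ctsh, the aminopeptidase cathepsin H, went the other way, at 142, 143 and 145 against 513, 508 and 441 (3.39-fold, adjusted p = 2.20e-06).

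Markers of mast cells, basophils and eosinophils were lower, with 6 falls and no rise among 11 tested, also without AKLG-1. Their summed signal was 1031 to 1448 on the derived arrays and 5189.9 to 5673 on GMP. Hdc, which makes histamine, read 94, 20.2 and 31.4 against 2000.4, 2480.1 and 2335 (at least 31.6-fold, adjusted p = 8.35e-08). Cpa3, the mast cell carboxypeptidase, read 1.1, 6.7 and -0.454 against 579, 624 and 640 (at least 9.83-fold, adjusted p = 0.00228), and Siglecf, an eosinophil lectin, read 107, 132 and 149 against 574, 654 and 741 (5.08-fold, adjusted p = 3.54e-06). All 3 markers were well above the floor in GMP, and Hdc and Cpa3 were below it on AKLG-2 and AKLG-3.

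Markers of other lineages were also summed. The summed signals of erythroid and megakaryocyte markers were 6689 to 7433 on the derived arrays and 6477 to 6798 on GMP, and 1 of 10 tested fell. Those of B cell markers were 4229 to 8011 against 5837 to 6638, with the highest value on AKLG-1, and 1 of 7 fell (2 without AKLG-1 and 0 without AKLG-3). Those of T and NK cell markers were 2663 to 2848 against 4679 to 5060.3, and 1 of 9 rose and 2 fell. The T and NK sum included Nkg7, which myeloid progenitors also express, and the T cell genes Cd3d and Cd3e read 117 to 159 and 164 to 203 on the derived arrays against 128 to 148 and 173 to 262 on GMP. Thy1, a T cell and stem cell antigen, rose at least 4.83-fold (122, 425 and 531 against 25.5, 48.1 and 42.8, adjusted p = 0.00341) and at least 7.61-fold without AKLG-1. Of 9 stromal markers 1 rose and 3 fell, and the riser Acta2, smooth muscle actin, read 257, 528 and 393 against 63.2, 64.5 and 59.4 (at least 5.94-fold, adjusted p = 4.25e-05). The part of other cells in the results was not tested.

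Adhesion molecules changed in both directions, with 6 rises and 7 falls among 23 tested, and 5 and 8 without AKLG-1. Itgb2, the beta-2 integrin chain CD18, read 743, 689 and 661 against 145, 96.5 and 92.3 (6.40-fold, adjusted p = 3.85e-06). Alcam read 20, 39.8 and 20 against 411, 393 and 455 (at least 6.71-fold lower, adjusted p = 8.49e-06), Vcam1 196, 169 and 117 against 666, 587 and 676 (4.09-fold lower, adjusted p = 4.15e-05), and the homing receptor Cxcr4 636, 755 and 637 against 1150.3, 984 and 1118 (1.60-fold lower, adjusted p = 0.00398). Vcam1 read 4026, 3175 and 2894 in L-GMP, so that the derived cells were below both marrow groups.

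Genes of class I antigen presentation were lower in 5 of 13 tested and higher in 1, and 6 were lower without AKLG-1. B2m, the light chain of class I molecules, read 1754, 1697 and 1409 against 4574, 3952 and 4001 (2.58-fold, adjusted p = 5.98e-05). The peptide transporter subunit Tap1 read 466, 358 and 414 against 699, 840 and 871 (1.95-fold, adjusted p = 0.00114), and the immunoproteasome subunit Psmb9 read 543, 477 and 563 against 1010.2, 1017 and 1019 (1.93-fold, adjusted p = 1.22e-04). The riser Tap2 had AKLG-1 apart (881, 415 and 425 against 182, 295 and 300, 2.13-fold, adjusted p = 0.0193) and did not pass without GMP replicate 1 (adjusted p = 0.0753). Among 12 genes of class II and dendritic cells there were 1 riser and 2 fallers. Leaving out any 1 array but AKLG-1 left 0 risers and 1 faller. The class II chain H2-Aa read 17.3, 97 and 94.4 against 407, 427 and 396 (at least 4.94-fold lower, adjusted p = 1.46e-05).

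Antioxidant genes rose in 9 of 31 tested and fell in 3, and 11 rose and 4 fell without AKLG-1. This list holds Hpgd. Gpx3, a glutathione peroxidase, read 678, 853 and 881 against 236, 269 and 217 (3.33-fold, adjusted p = 1.34e-05), and Gclm, which limits glutathione synthesis, read 1572, 1628 and 1575 against 687, 676 and 644 (2.38-fold, adjusted p = 1.40e-05). Nfe2l2, the factor NRF2 that controls many of them, read 444, 733 and 528 against 974, 951 and 1036 (1.77-fold lower, adjusted p = 0.00731).

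Chromatin regulators include DNA methyltransferases and Polycomb components. Of 28 tested 7 fell, 1 rose and 20 did not pass, and 6 fell and 2 rose without AKLG-1. Dnmt3b read 384, 460 and 391 against 1524, 1849.7 and 1937 (4.29-fold, adjusted p = 2.16e-06), and Dnmt3a read 307, 195 and 166 against 749, 851 and 816 (3.74-fold, adjusted p = 7.94e-05). These are the enzymes that set new DNA methylation. Phc1 and Rnf2, members of Polycomb repressive complex 1, fell 2.18-fold and 1.77-fold (253, 167 and 150 against 312, 459 and 460, and 723, 1130.0 and 949 against 1677, 1565 and 1635, adjusted p = 0.00318 and 0.00405), and Rnf2 did not pass when its probe sets were averaged (adjusted p = 0.0541). The rise of Wdr5 by 1.26-fold (adjusted p = 0.0382) did not pass without GMP replicate 2 or 3 or without AKLG-2 or AKLG-3.

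**Figure D4:**
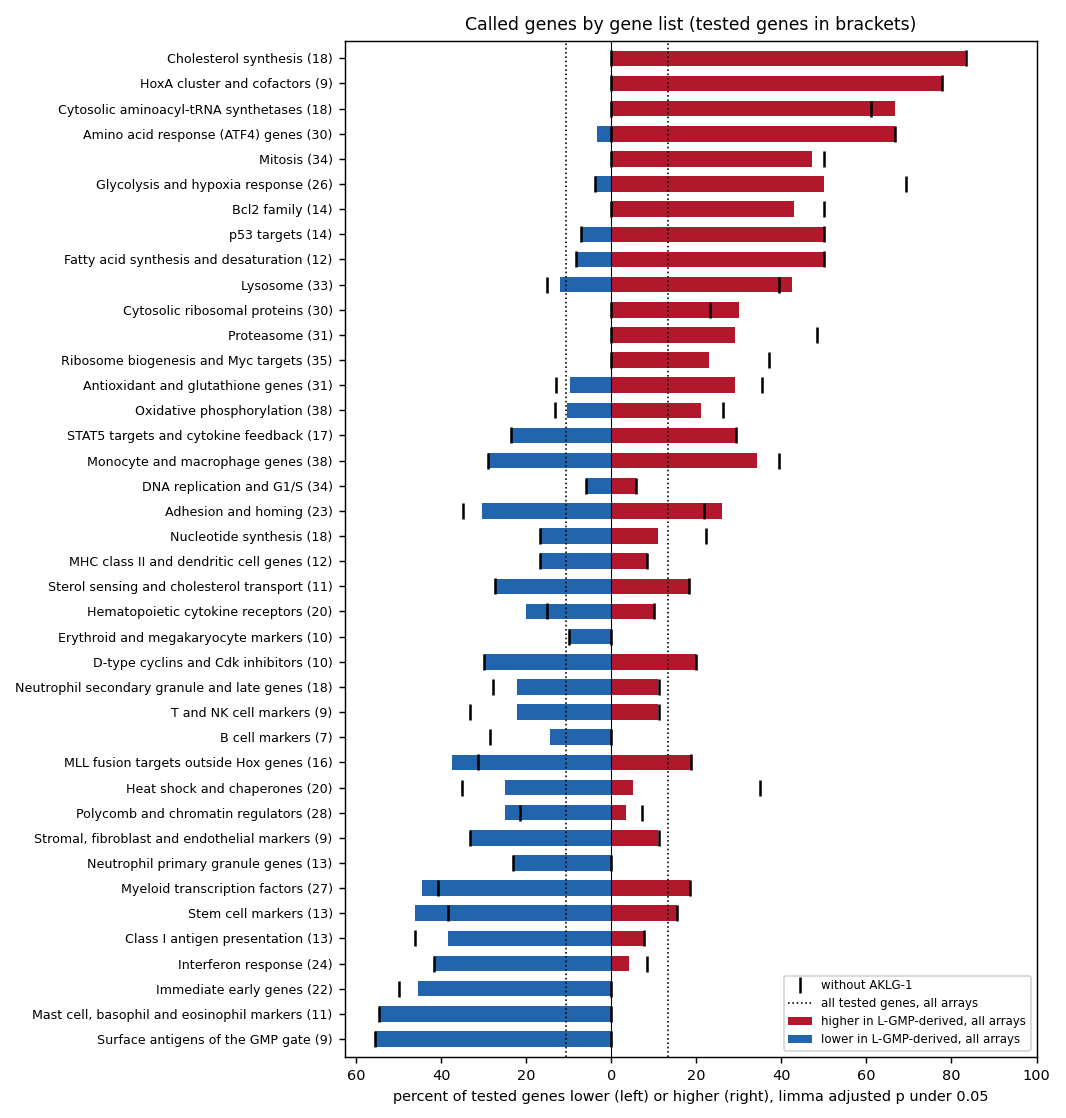
Percent of tested genes of each list that were higher (right, red) or lower (left, blue) in L-GMP-derived cells than in GMP, with ticks for the fit without AKLG-1 and dotted lines at 13.4% and 10.7% for all tested genes. Cholesterol synthesis has the largest share of rises, 15 of 18, and the lists of mast cell markers and GMP surface antigens the largest shares of falls.

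Late neutrophil and low-oxygen genes, with 2 of 7 tested B cell markers, were among those in which AKLG-1 lay far from AKLG-2 and AKLG-3. It was at least 2-fold above their mean in 133 genes (1.48%) and at least 2-fold below it in 142 (1.58%), whereas AKLG-2 and AKLG-3 were 2-fold apart in 24 (0.268%). These are differences of 1 array and carry no test. The genes named below are among the 20 highest and the 20 lowest on AKLG-1 for which AKLG-2 and AKLG-3 were within 2-fold of each other.

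High on AKLG-1 were Ighm, which encodes the heavy chain of IgM, at 3743 against 605 and 881, and Cd180, at 336 against 65.4 and 62.7. GMP read 2291, 1825 and 1815 for Ighm and 258, 198 and 237 for Cd180, so AKLG-1 was above the GMP range for both genes while the other derived arrays were below it. Most B cell markers did not follow. Of 7 tested, 2 were at least 2-fold higher on AKLG-1, and the median log2 difference was 0.19. Cd79a and Cd22, chosen after their values were seen, were too dim to be tested, at 72.9, 86.6 and 82.3 and at 67.1, 63.4 and 56.8. H2bc22, a histone gene, read 675, 168 and 204 against 2439, 2115 and 2337 in GMP, and the actin-binding tropomyosin Tpm4 read 378, 103 and 126 against 407, 326 and 347. With Mpo, Mndal and Ms4a6b (255, 40.4 and 21.9 against 1883, 2044 and 2032), these formed a group in which AKLG-1 was nearer to GMP. The fall of Ms4a6b was at least 19.9-fold with all arrays (adjusted p = 6.53e-05) and at least 31.8-fold without AKLG-1.

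Low on AKLG-1 were Ak4, S100a9 and Ngp, given above, and S100a8, at 334, 3517 and 3874 against 9475, 5278 and 6658 in GMP. Scin, an actin-severing protein, read 66.8, 605 and 489 against 115, 145 and 127, and Mogat2, an acylglycerol enzyme, read 122, 921 and 989 against 171, 236 and 211. Both were at or below the GMP range on AKLG-1 and at least 2-fold above it on the other derived arrays, and neither passed with all arrays (adjusted p = 0.263 and 0.22). Without AKLG-1 they were 4.23-fold and 4.67-fold higher than in GMP (adjusted p = 1.86e-05 and 7.33e-04). The iron exporter Slc40a1 read 161, 1368 and 1133 against 733, 674 and 738.

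By list, 7 of 18 late neutrophil genes and 6 of 26 glycolysis and hypoxia genes were at least 2-fold lower on AKLG-1 than on the other derived arrays, and none of either list was 2-fold higher. On the same array 4 of 30 ATF4 genes were at least 2-fold higher, and of 38 monocyte genes 6 were at least 2-fold higher and 3 at least 2-fold lower. The side on which AKLG-1 lay was counted for genes in which the other derived arrays were far from GMP. Of 87 genes at least 4-fold higher than GMP without AKLG-1, that array lay above the GMP range in 85, and of 115 at least 4-fold lower it lay below the range in 113. The hybridization control probe sets of AKLG-1 read 0.26 above the mean of all arrays on the log2 scale, those of GMP replicate 3 0.18 above it, and those of the other arrays -0.16 to 0.01 from it. Their part in the differences of AKLG-1 was not tested.

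**Figure D5:**
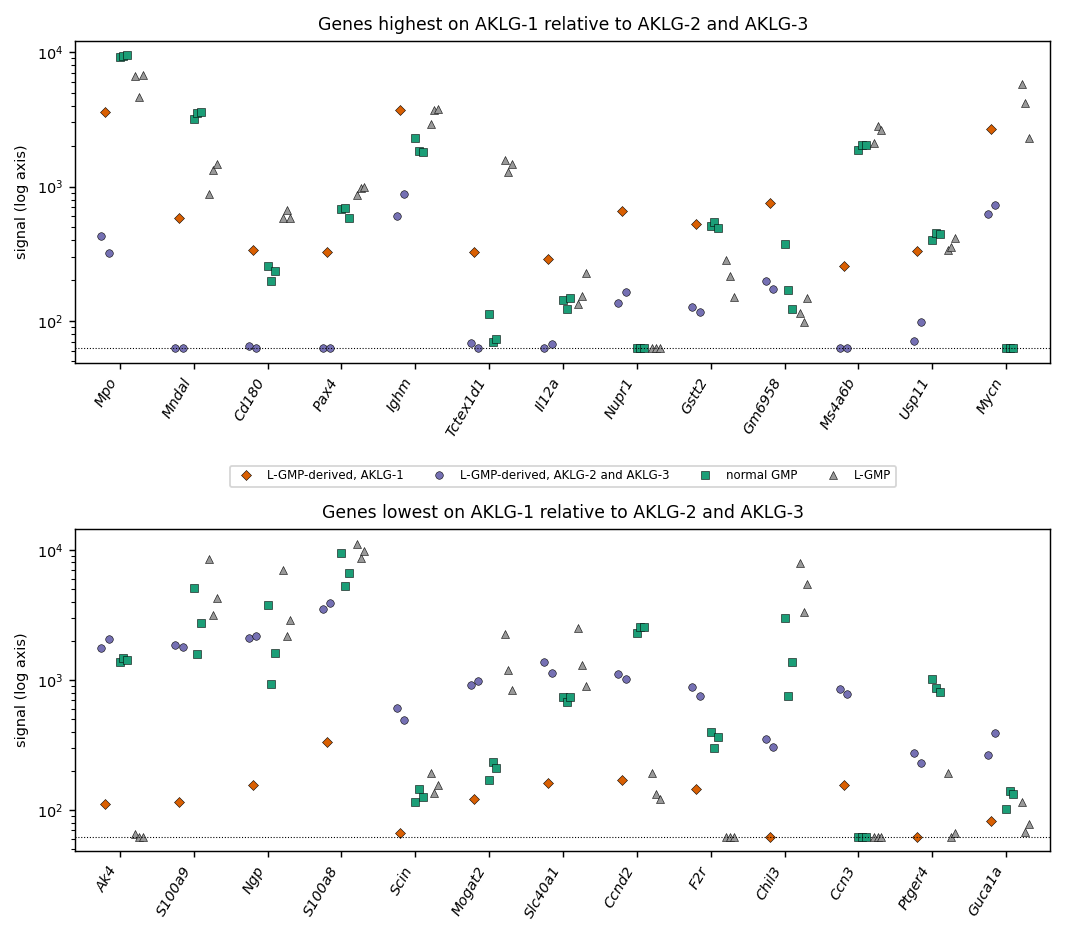
Signals on each array, on a log axis with the floor as a dotted line, of genes high on AKLG-1 (top) and low on AKLG-1 (bottom) relative to AKLG-2 and AKLG-3, with GMP and L-GMP beside them. For Ighm AKLG-1 (3743) lies above the GMP arrays, and for Scin (66.8) it lies below them while AKLG-2 and AKLG-3 lie above.

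Against marrow L-GMP, the derived cells differed in 2754 genes (30.7%), 1489 (16.6%) higher and 1265 (14.1%) lower. This comparison shares the derived arrays with the comparison against GMP, so the lists are given side by side only. Cholesterol synthesis rose in 15 of 18 genes against GMP and in 15 against L-GMP, and ATF4 genes in 20 and 21 of 30. HoxA genes and cofactors rose in 7 of 9 against GMP but in 2 against L-GMP, where 3 fell, with Hoxa9 at 5617, 5312 and 5369 in L-GMP. Ribosome biogenesis rose in 8 of 35 against GMP and in 28 against L-GMP, and mitosis in 16 and 7 of 34. Late neutrophil genes fell in 4 of 18 and in 8, and immediate early genes in 10 and 7 of 22.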

How the data were processed

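RNA of small numbers of sorted cells was amplified and hybridized to 9 one-colour Affymetrix arrays, 3 per group, per the labels' protocols. The authors deposited intensities per probe set on a linear scale, and MAS5 (version 5) is named in the submitters' processing notes. Values below 0 made up 0.939% of the table, so which summary and scaling steps gave these intensities stays unknown. The 64 control probe sets were left out. Probe sets were named by GEO's platform annotation, and a check of the symbols against RefSeq changed 0 of them.

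Signals were floored at 62.4, put on a log2 scale and fitted with limma 3.58.1 in R 4.3.3 (lmFit on all 9 arrays, eBayes with an intensity trend, Benjamini-Hochberg adjustment). The script was tested on simulated data. No depth exists for arrays, and their number limits the precision.

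The members and lists were chosen with earlier results of these data known. Named genes were the 25 highest rises and 25 deepest falls without overlap, up to 6 called members per list, a set of known genes, and the 20 genes highest and 20 lowest on AKLG-1. Alternatives covered floor, filter, trend, normalization, array weights, probe set choice, minimum fold, replicate block and each array left out.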

Additional observations from a re-analysis of the deposited data

How the results depend on the processing

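Over all tested probe sets 3551 passed against GMP, 2036 higher and 1515 lower. The counts were 6912, 3800 and 3112 with array weights, 1503, 828 and 675 against a minimum fold of 1.2, and 2177, 1207 and 970 with plain _at probe sets alone, which are fewer. Leaving out 1 array gave 2306 (without GMP replicate 3) to 4456 (without AKLG-1), with 1298 to 2663 higher and 1008 to 1793 lower. Without AKLG-1 (4456), the minimum fold gave 1964, 1140 and 824, plain _at probe sets 2745, 1598 and 1147, and leaving out a further array 2369 to 4870, 1239 to 2919 and 1062 to 1951. Against L-GMP (4354), array weights gave 2957 lower, the minimum fold 1988, 1088 and 900, and plain _at probe sets 2605, 1387 and 1218. The cause of the changes with array weights was not tested.

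The replicate block gave 1750 probe sets, 925 higher and 825 lower. Deviations of arrays with the same number did not correlate above 0.1 (-0.276 and -0.019 between derived cells and GMP). Some with different numbers did, at 0.213 for AKLG-2 with GMP replicate 1 and 0.208 for AKLG-1 with GMP replicate 2. The labels name no pairing, and so few correlations cannot settle whether arrays shared a batch.

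Of 216 named genes that passed, 151 passed under all 17 alternatives. Signs turned for Elane, which did not pass (log2 -0.10 to 0.00 with 1 array left out), and, averaged over probe sets, for Dtymk (0.28) and Hspa4 (0.25). The 3′ to 5′ ratio differences, derived minus GMP, spanned -0.468 to 0.0967 for beta-actin and -1.66 to 0.0233 for Gapdh with 1 array left out. The cause was not tested.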
